A study of Mus musculus with 24 samples.

Results

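The cathepsins are the main proteases of the lysosome, and 10 of their genes were examined here: Ctsa, Ctsb, Ctsc, Ctsd, Ctse, Ctsh, Ctsk, Ctsl, Ctss and Ctsz. They were chosen by name, with earlier results of these data known. All single-gene probe sets of these genes were used, which came to 22 of the 34945 single-gene probe sets (10 of 18193 genes) on the Affymetrix array. The 12 ADR samples came from lymphomas that had arisen in the lymph nodes of Eμ-Myc mice, kept in culture for 5 days with Adriamycin at 0.05 µg/ml. Adriamycin (ADR), or doxorubicin, breaks DNA. The 12 untreated samples were cultures of the same 12 lymphomas without the drug. Both groups carried the Myc transgene, active throughout the B lineage, and a retroviral Bcl2 gene that blocks apoptosis, with puromycin selection of the transduced cells. Both grew on gamma-irradiated NIH 3T3 cells, a mouse fibroblast line used as a feeder layer. Treated lymphomas of this model are described as senescent by the submitters, that is, lastingly arrested. Each sample was a bulk RNA preparation on 1 array, so fewer cells of a type and less RNA per cell cannot be told apart.

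Cathepsins are made as inactive proenzymes, tagged with mannose 6-phosphate, carried to acidic compartments and activated there by cleavage. Ctsb, Ctsc, Ctsh, Ctsk, Ctsl, Ctss and Ctsz encode cysteine proteases, Ctsd and Ctse aspartic proteases, and Ctsa a serine carboxypeptidase. Macrophages and other phagocytes hold much of these enzymes, fibroblasts secrete pro-cathepsin L, and B cells use cathepsin S to process the invariant chain of MHC class II. An enlarged lysosomal compartment is a known feature of senescent cells.

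After ADR, 8 of the 10 cathepsin genes were higher, 1 (Ctse) was lower and 1 (Ctsh) did not pass the test. A gene was called when its probe set with the highest mean had an adjusted p under 0.05 in limma with the lymphoma as a block. Over all genes, 13.4% were called higher and 12.5% lower. Those shares include weak genes, whereas all 10 cathepsin genes had means above 4.47, the highest array median, in both groups. In a fit of the 17172 probe sets with a mean of 5 or more, 3278 were called higher and 3953 lower. The median log2 change (ADR minus untreated) was 0.91 over the 10 genes and -0.01 over all genes. Of the 22 probe sets of the family, 15 were called higher, 1 lower and 6 were not called. Over all 34945 probe sets, 11.3% were called higher and 12.5% lower. The largest rises were those of Ctsl (3.96-fold) and Ctsd (3.68-fold), followed by Ctsb (2.47-fold), Ctsa (2.05-fold) and Ctsk (2.04-fold). These 5 genes were called and at least 2-fold higher, as were 3.59% of all genes. Ctsa, Ctsb, Ctsd and Ctsl were higher in all 12 lymphomas, as were 3.02% of all genes. In none of the 22 probe sets did all 12 ADR arrays lie above, or all below, the 12 untreated arrays; of all genes, 0.033% had every ADR array above every untreated one.

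**Figure D1:**
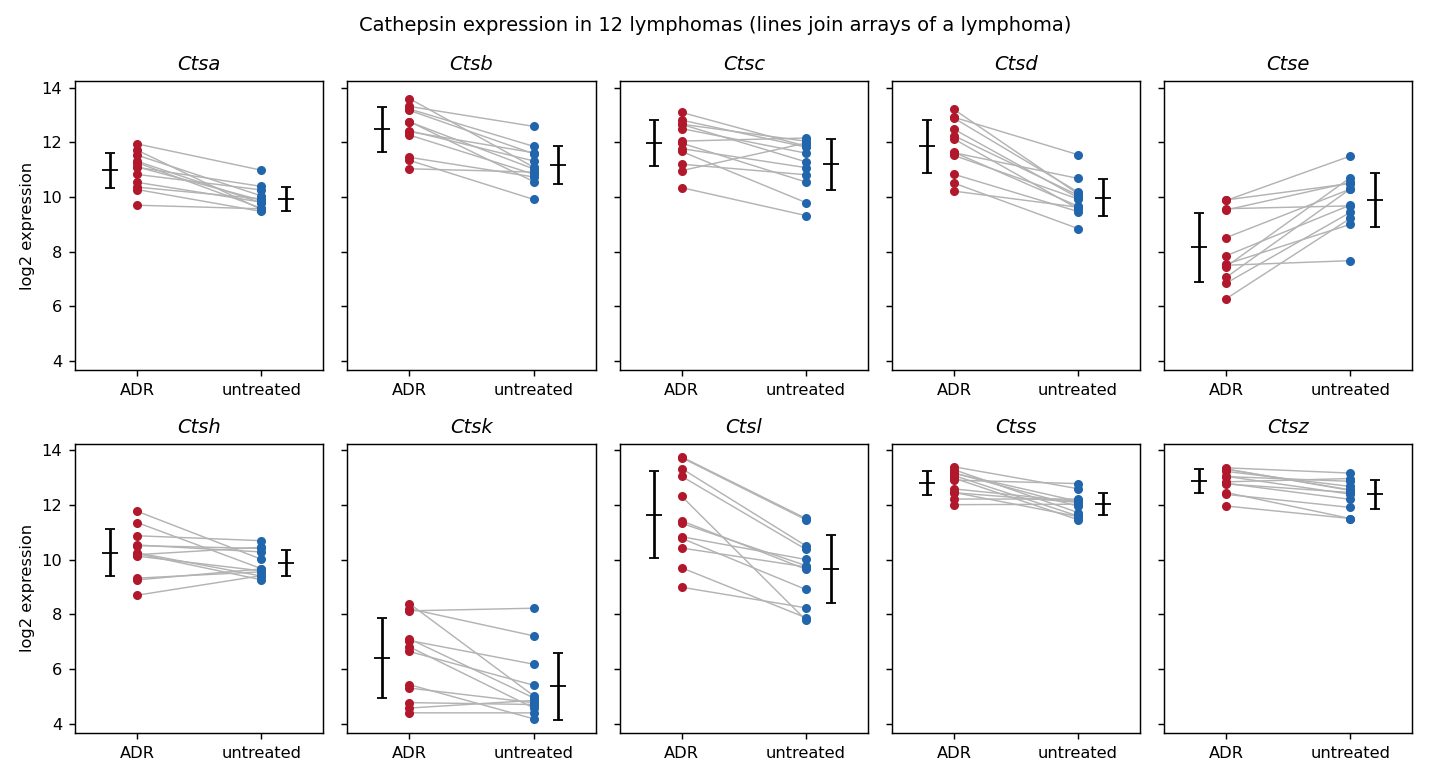
Log2 expression of each cathepsin gene (its probe set with the highest mean) in 12 lymphomas, ADR at left and untreated at right, with lines joining the arrays of a lymphoma and black bars for mean ± SD. Lines fall toward the untreated side for Ctsa, Ctsb, Ctsd and Ctsl in every lymphoma and climb for Ctse in every lymphoma. Positions on the axis compare samples within a gene, not genes with each other.

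Ctsd, the major aspartic protease of lysosomes, ranged from 10.22 to 13.21 with a median of 11.88 on the log2 scale in ADR arrays. In untreated arrays it ranged from 8.85 to 11.55 with a median of 9.95, and 8 of 12 ADR arrays lay above the highest untreated one. The mean was 11.85 ± 0.97 with ADR and 9.97 ± 0.67 untreated (SD, n = 12 each), a log2 change of 1.88 (SE 0.20, limma adjusted p = 3.35e-05). Every lymphoma rose, by 0.59 in lymphoma 2949 at the least and by 3.09 in 3769 at the most.

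Ctsl, a cysteine endopeptidase, ranged from 9.0 to 13.76 with a median of 11.38 in ADR arrays. Its untreated arrays ranged from 7.80 to 11.51 with a median of 9.76. These are wide spreads, with the highest array of each group from the same lymphoma, 403. The log2 change was 1.99 (SE 0.28, limma adjusted p = 0.00022), from 0.69 in lymphoma 1467 to 4.52 in 2581. The gene's other probe set averaged 3.63 with ADR and 3.40 untreated, both below the highest array median of 4.47, and was not called (adjusted p = 0.304).

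Ctsb, a cysteine protease that also removes dipeptides from the carboxyl end, ranged from 11.04 to 13.60 with a median of 12.59 in ADR arrays. It ranged from 9.92 to 12.59 with a median of 11.06 untreated. The log2 change was 1.31 (SE 0.18, limma adjusted p = 0.000171), between 0.12 in lymphoma 2949 and 2.51 in 3769. Its 5 probe sets differed in size but not in direction. The estimates ran from 0.23 for 1444987_at, which was not called (adjusted p = 0.0698), to 2.25 for 1417492_at, a 4.76-fold rise.

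Ctsa encodes protective protein, a carboxypeptidase that also stabilises lysosomal beta-galactosidase and neuraminidase. Its ADR arrays ranged from 9.70 to 11.94 with a median of 11.10, and its untreated arrays from 9.47 to 10.98 with a median of 9.85. The log2 change was 1.03 (SE 0.16, limma adjusted p = 0.00039), smallest in lymphoma 2949 (0.13) and largest in 3769 (2.17). A weaker probe set (1458466_at, 5.29 with ADR and 5.13 untreated) had a change of 0.16 and lay just past the threshold (adjusted p = 0.05002). It was called in the fits without lymphoma 2581 or without 3802.

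For 7 of the 10 genes the RefSeq promoter table (GRCm38.p6) held the bases before at least 1 start, namely Ctsa, Ctsc, Ctsd, Ctsk, Ctsl, Ctss and Ctsz. Because several members rose together, these stretches of 250 bases before the start were searched for the E-box CACGTG, the core of the element bound by TFEB and its relatives at many lysosomal genes. The table held 8 such promoters, 2 of them of Ctsa. The E-box was present in 3 of the 8, those of Ctsd and Ctsl and 1 of Ctsa, and in 6.02% of 32851 promoters of that length. The other Ctsa promoter (chr2:164832622-164832871) had none. The longer form TCACGTGA occurred in that same Ctsa promoter with an E-box, in Ctsd, and in 0.785% of all promoters, and contains the E-box. GAGGAAGT (or ACTTCCTC on the other strand), a form of the site of the myeloid factor PU.1, was in 1 of the 8, that of Ctsc, and in 2.44% of all. CACGTG and TCACGTGA read the same on both strands. The 2 promoters with the longer form are printed with that of Ctss, which has none, 5′ to 3′ on the gene's strand and with the E-box, or its longer form, in capitals. They lie at chr7:142387828-142388077 on the minus strand (Ctsd), chr2:164833523-164833772 on the plus strand (Ctsa) and chr3:95526536-95526785 on the plus strand (Ctss).
Ctsd: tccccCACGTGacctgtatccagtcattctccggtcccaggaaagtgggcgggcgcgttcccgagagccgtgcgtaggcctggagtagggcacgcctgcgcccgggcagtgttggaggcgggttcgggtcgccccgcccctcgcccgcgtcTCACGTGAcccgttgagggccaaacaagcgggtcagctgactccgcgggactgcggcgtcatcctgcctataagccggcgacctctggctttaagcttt
Ctsa: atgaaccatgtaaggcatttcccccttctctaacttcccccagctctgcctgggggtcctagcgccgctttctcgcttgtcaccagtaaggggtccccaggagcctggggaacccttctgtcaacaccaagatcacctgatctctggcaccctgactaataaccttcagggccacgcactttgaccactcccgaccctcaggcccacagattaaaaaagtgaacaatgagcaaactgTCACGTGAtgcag
Ctss: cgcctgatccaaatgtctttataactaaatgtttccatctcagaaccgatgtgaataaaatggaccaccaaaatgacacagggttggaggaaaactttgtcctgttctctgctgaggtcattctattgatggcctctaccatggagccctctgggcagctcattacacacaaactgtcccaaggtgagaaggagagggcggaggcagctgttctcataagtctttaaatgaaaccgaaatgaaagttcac
A match is only a stretch of letters; binding was not measured.

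Ctss, which encodes the protease that trims the invariant chain in antigen-presenting cells and has 1 probe set here, ranged from 12.02 to 13.40 with a median of 12.95 in ADR arrays and from 11.47 to 12.79 with a median of 12.07 untreated. The rise was 1.72-fold (log2 change 0.79, SE 0.16, limma adjusted p = 0.00268), and 11 of 12 lymphomas were higher, the exception being 2949 at -0.02.

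Ctsz, a carboxypeptidase also called cathepsin X, ranged from 11.97 to 13.36 with a median of 12.95 in ADR arrays and from 11.51 to 13.17 with a median of 12.50 untreated. Its rise was the smallest of the called ones at 1.40-fold (log2 change 0.48, SE 0.09, limma adjusted p = 0.00124), with 11 of 12 lymphomas higher. All 3 of its probe sets were called higher, between 0.48 and 0.77.

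Ctsc, or dipeptidyl peptidase I, which activates serine proteases of leukocyte granules, ranged from 10.35 to 13.10 with a median of 12.01 in ADR arrays and from 9.32 to 12.16 with a median of 11.45 untreated. The log2 change was 0.78 (SE 0.20, limma adjusted p = 0.0121). It was 1.87 in lymphoma 1467, the highest, and -1.01 in 403, the lowest. All 3 probe sets were called, at 0.78, 1.28 and 1.70.

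Ctsk, the collagen-degrading cathepsin of osteoclasts, ranged from 4.40 to 8.40 with a median of 6.73 in ADR arrays and from 4.18 to 8.23 with a median of 4.90 untreated, and 1 ADR array lay above the highest untreated one. Its log2 change was 1.03 (SE 0.29, limma adjusted p = 0.0192), with 10 of 12 lymphomas higher. Lymphoma 5766 changed by 3.37 and 1467 by -0.28. Of 9 osteoclast genes in a list, 1 was called higher (Mmp9, a matrix protease that is also in the neutrophil list, 3.32-fold), as were 13.4% of all genes. Means of 4 of the 9 lay above 4.47 in both groups: Mmp9, Acp5, an acid phosphatase (7.99 with ADR, 7.36 untreated), the transcription factor gene Nfatc1 (8.35 with ADR, 8.0 untreated) and the integrin gene Itgb3 (5.67 with ADR, 6.40 untreated). The last 3 were not called.

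Ctsh, an aminopeptidase, ranged from 8.71 to 11.77 with a median of 10.24 in ADR arrays and from 9.27 to 10.70 with a median of 9.67 untreated. It was higher in 8 lymphomas and lower in 4, with changes from -0.71 in 2949 to 1.76 in 3594. The log2 change of 0.39 did not pass (95% confidence interval -0.05 to 0.84, limma adjusted p = 0.203), nor did that of its second probe set (0.38).

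Ctse, an aspartic protease of endosomes found in immune cells and gastric epithelium, gave results that depended on the probe set. By 1427797_s_at, the brighter one, ADR arrays ranged from 6.28 to 9.90 with a median of 7.70 and untreated arrays from 7.67 to 11.50 with a median of 10.00. This was 3.29-fold lower (log2 change -1.72, SE 0.29, limma adjusted p = 0.00086) and lower in 12 of 12 lymphomas, as were 4.17% of all genes. By 1418989_at the means were 7.92 ± 1.19 with ADR and 7.74 ± 1.04 untreated (SD, n = 12 each), a log2 change of 0.17 (adjusted p = 0.734). With that probe set 6 lymphomas were higher and 6 lower. The suffix of the first marks probes that match more than 1 transcript, and which transcript fell was not tested.

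**Figure D2:**
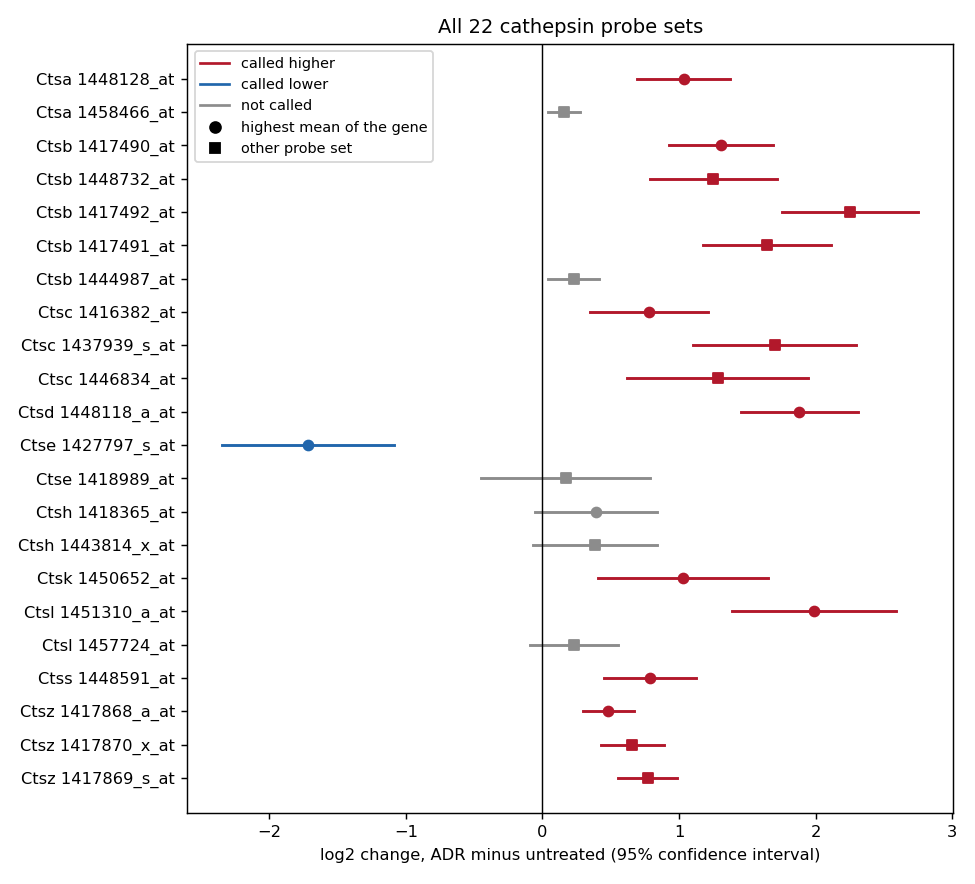
Log2 change (ADR minus untreated) of all 22 cathepsin probe sets with 95% confidence intervals from limma; circles mark the probe set with the highest mean of a gene and squares the others. The called rises lie between 0.48 (Ctsz) and 2.25 (a Ctsb probe set), and the Ctse pair lies at -1.72 and 0.17.

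The changes of several members were related to each other. Of 45 pairs of genes, 40 had a positive Pearson r of their changes over the 12 lymphomas and 14 passed (permutation test with 100000 resamples, adjusted over the 45). No such share was computed for pairs of other genes, so the counts do not show that cathepsins are closer to each other than genes in general. Ctsb with Ctsd was the closest pair (r = 0.940, rho = 0.937, permutation adjusted p = 0.0009, 0.878 leaving out 2949 and 3769, with the most extreme Ctsb changes, and 0.959 within the 7 lymphomas whose treated array name holds "DOX"). Ctsh with Ctss followed (r = 0.899, rho = 0.951, permutation adjusted p = 0.0009, 0.975 leaving out 3594 and 3769, the most extreme for Ctsh, and 0.890 in those 7). Ctsc passed with Ctsz alone (r = 0.825, rho = 0.762, permutation adjusted p = 0.00585, 0.558 leaving out 403 and 3802, the most extreme for Ctsc, and 0.829 in those 7), and neither Ctse nor Ctsk passed with any other member.

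Markers of macrophages, fibroblasts and neutrophils were higher with ADR. As a reference for the counts below, 13.4% of all genes were called higher and 12.5% lower. Which cells the RNA came from was not tested. Macrophage markers were called higher in 16 of 27 genes and lower in none, with Clec4d, a lectin of myeloid cells, 7.94-fold, Clec4n, a related lectin, 5.43-fold and Adgre1, a macrophage surface receptor, 4.56-fold higher. Their mean ranged from 5.47 to 7.97 in ADR arrays and from 4.54 to 7.07 in untreated arrays, and rose in 12 of 12 lymphomas by 0.44 (2949) to 2.25 (2581). Fibroblast markers were called higher in 23 of 29 genes and lower in none, led by Cald1, an actin-binding protein (8.36 with ADR, 4.27 untreated), the fibronectin gene Fn1 (11.1-fold) and the collagen-crosslinking gene Lox (10.5-fold). Their mean ranged from 4.85 to 8.88 in ADR arrays and from 4.46 to 5.28 in untreated arrays, with changes from -0.10 (1467) to 3.93 (403). With ADR 21 of 27 macrophage markers and 26 of 29 fibroblast markers had a mean above 4.47, against 19 and 16 in untreated arrays. Neither list contained a lysosomal protease. All 17 B-cell markers lay above 4.47 in both groups, and 7 of them were lower with ADR, among them Vpreb3 (4.50-fold), a partner of the immunoglobulin heavy chain, the B-cell receptor-like gene Fcrla (2.78-fold) and the surface lectin gene Cd22 (2.51-fold). The mean of the neutrophil markers rose in 12 of 12 lymphomas, by 0.29 to 2.02, and 4 of 10 were called higher (among them Mmp8, a collagenase, 5.50-fold, S100a8, a calcium-binding protein, 4.58-fold and the siderophore-binding Lcn2 by 2.77 on the log2 scale). Among dendritic cell markers 0 of 9 were called higher and 2 lower, Ccr7 (1.91-fold) and Flt3 (1.48-fold). Only 4 of these 9 had an untreated mean above 4.47 and 4 an ADR mean above it, so that count says little about most of the list. Of the 10 neutrophil markers, 5 had an untreated mean above 4.47 and 6 an ADR mean above it.

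The cathepsin changes followed the macrophage marker change across lymphomas for 7 of the 10 genes, and the fibroblast marker change for none by Pearson's r. In all, 40 relations were computed, each by the gene's probe set with the highest mean, with p-values adjusted over them. Those of the other probe sets were not computed, including the other Ctsc probe sets, which were also called higher. Of all genes outside the marker list, 1.70% had an r with the macrophage change at or above 0.672, the lowest r that passed, and the median r was 0.70 over the 10 cathepsins and -0.01 over those genes. That r was taken from the cathepsins, so the share is a description. The relation to macrophage markers was closest for Ctss (r = 0.864, rho = 0.853, permutation adjusted p = 0.00493 and 0.008) and Ctsh (r = 0.80, rho = 0.811, permutation adjusted p = 0.0174 and 0.0194), and both kept it by r when lymphomas 2581 and 2949, with the most extreme marker changes, were left out (0.811 and 0.799, permutation adjusted p = 0.0418 for each), but not by rank (adjusted p = 0.089 and 0.118). Of all genes 0.473% had an r that high there. Ctsb (0.747), Ctsd (0.726), Ctsa (0.708), Ctsz (0.686) and Ctsl (0.672) had adjusted p between 0.0404 and 0.0463. Without those 2 lymphomas these 5 no longer passed, with r between 0.309 (Ctsl) and 0.739 (Ctsz). Their rho values were 0.706, 0.699, 0.713, 0.734 and 0.524 in the order named, and only that of Ctsl did not pass (adjusted p = 0.196). By the probe sets used, Ctsc (r = 0.490, rho = 0.462), Ctse (0.309 and 0.315) and Ctsk (0.172 and 0.196) did not pass. Without lymphomas 2581 and 2949 their r was 0.694, 0.706 and 0.383, and none of them passed there either.

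Against the fibroblast marker change, r lay between -0.47 (Ctse) and 0.61 (Ctsl) by the probe set with the highest mean of each gene. The other Ctse probe set, 1418989_at, changed by -1.42 in lymphoma 403 and by 1.38 in 1467. Those lymphomas had the largest and smallest fibroblast changes (3.93 and -0.10), and the relation of that probe set was not computed. Ctsl passed by rank (rho = 0.811, permutation adjusted p = 0.0198) but not by r (0.608, permutation adjusted p = 0.0818, and 0.591 without lymphomas 403 and 1467). Ctsd had r = 0.50 (rho = 0.608), Ctsa 0.425, Ctsb 0.394, Ctsh 0.336, Ctss 0.277 and Ctsk 0.251, while Ctsz had -0.22 and Ctsc -0.40. Without lymphomas 403 and 1467 the signs of Ctsz (0.227) and Ctsc (0.358) turned, and Ctse stayed negative (-0.25). None of the 10 genes passed there. Whether the relations to the 2 marker lists differ was not tested. Over the 12 lymphomas the 2 marker changes themselves were not detectably related (r = 0.0596, rho = 0.133, permutation p = 0.852 and 0.683). Cathepsin and marker values come from the same arrays, and the part of other cells in the cathepsin changes was not tested. The fits with covariates cannot measure that part. The macrophage mean rose with ADR in 12 of 12 lymphomas and the fibroblast mean in 11, so both overlap with the drug.

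Single lymphomas varied around these relations. In lymphoma 403 the fibroblast mean rose most (3.93) and the macrophage mean little (0.48); Ctsl changed by 2.25 and Ctsd by 2.18, and Ctsc by -1.01, Ctsz by -0.12 and Ctsh by -0.40. Lymphoma 5560 had like marker changes (3.75 and 0.88), and there Ctsl changed by 2.27 and Ctsd by 1.37. Ctsc changed there by 0.62, Ctsz by 0.19 and Ctsh by 0.18, so 5560 did not share the falls of 403. Over the 12 lymphomas Ctsc was lower in 2, Ctsh in 4 and Ctsz in 1. In lymphoma 1467 the fibroblast mean changed by -0.10 and the macrophage mean by 1.48; Ctsc changed by 1.87, Ctsd by 1.37 and Ctsl by 0.69. In lymphoma 2949, the fibroblast mean changed by 0.46 and the macrophage mean by 0.44; Ctsa changed by 0.13, Ctsb by 0.12, Ctsd by 0.59 and Ctsc by 1.02. These 4 were picked after their values were seen and carry no test.

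**Figure D3:**
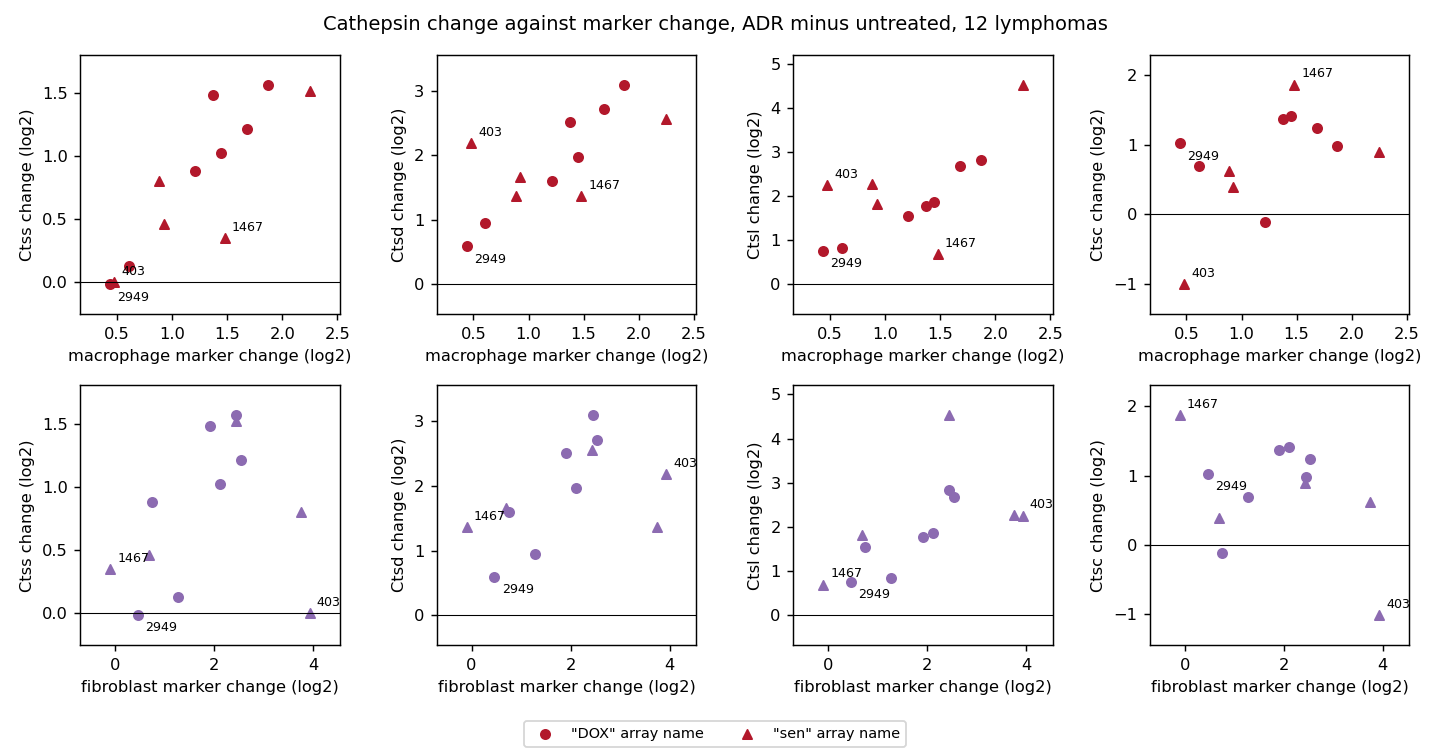
Change of Ctss, Ctsd, Ctsl and Ctsc (each point a lymphoma, y axes log2 ADR minus untreated) against the change of the macrophage marker mean (upper row) and the fibroblast marker mean (lower row); circles and triangles mark the DOX and sen array names. Ctss climbs with the macrophage change (r = 0.864), while lymphoma 403 has the largest fibroblast change and the lowest Ctsc change (-1.01). The 4 genes were picked after the values were seen.

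The same relation was present before treatment for some members. Among untreated arrays, Ctsd (r = 0.869, rho = 0.937, permutation adjusted p = 0.0034 and 0.0016) and Ctsb (r = 0.865, rho = 0.909, permutation adjusted p = 0.0034 and 0.0024) were higher where macrophage markers were higher, as were Ctsa (0.718, rho = 0.741) and Ctsl (0.712, rho = 0.762), both with permutation adjusted p = 0.0404. Without lymphomas 1467 and 1570, whose macrophage means were the lowest (4.61 and 4.54), these 4 had r between 0.828 and 0.861. By rank Ctsd and Ctsb still passed there (permutation adjusted p = 0.046 and 0.0494), while Ctsa and Ctsl did not (0.089 for each). Of all genes, 1.26% had an r at or above 0.712 over the 12 arrays, and 0.297% at or above 0.828 without those 2. Ctss (0.245), Ctsz (0.405), Ctsc (0.656), Ctsk (0.621), Ctsh (-0.17) and Ctse (-0.01) did not pass. Against the untreated fibroblast mean, which spanned only 4.46 to 5.28, Ctss passed by r (0.719, rho = 0.685, permutation adjusted p = 0.0404 and 0.0526), as high as in 0.264% of all genes, and its r was 0.455 without lymphomas 6054 and 7050. Ctsk passed by rank alone (rho = 0.734, permutation adjusted p = 0.0385).

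Adding the marker means of each array to the fit changed the estimates. With the fibroblast mean as a covariate, calls fell over all genes, with 2.07% called higher against 13.4% without it. Of the 8 higher cathepsin genes 1 remained called, Ctsd (log2 change 1.33, SE 0.32, limma adjusted p = 0.0342), and Ctsl was at 1.04 (SE 0.41, adjusted p = 0.184) and Ctsb at 0.92 (SE 0.30). Ctsc was larger than without it (1.23, SE 0.34, adjusted p = 0.0614), and so was Ctsz (0.58). With the macrophage mean instead, none of the 10 was called: Ctsd was at 0.70 (SE 0.35, adjusted p = 0.504), Ctsl at 0.45, Ctsb at 0.24, Ctsa at 0.14 and Ctsz at 0.04, and Ctss turned to -0.31 and Ctsc to -0.02. Ctse was at -2.46 (SE 0.71, adjusted p = 0.258). In that fit limma called 0 of all 34945 probe sets, with 3695 at an unadjusted p under 0.05; the macrophage mean was higher with ADR in every lymphoma, so it and the drug overlap. With both means, Ctsd was at 0.24, Ctsl at -0.36 and Ctss at -0.49, and none was called.

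**Figure D4:**
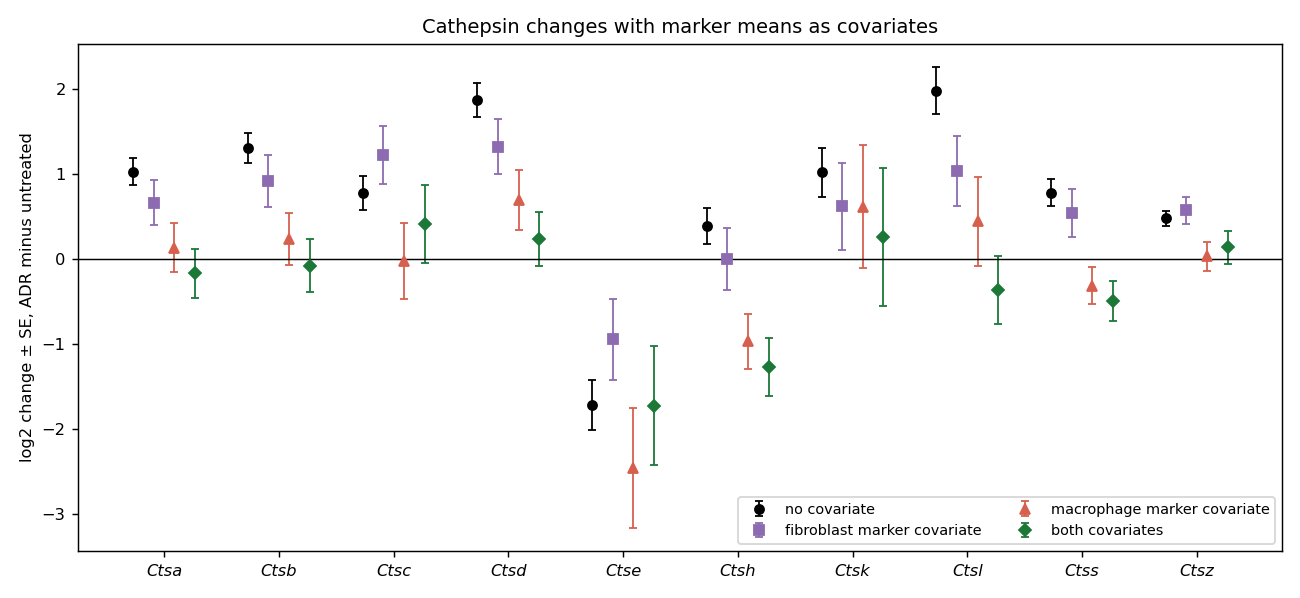
Log2 change ± SE (ADR minus untreated) of each cathepsin gene with no covariate, with the fibroblast marker mean, the macrophage marker mean, or both as covariates. Ctsd goes down stepwise (1.88, 1.33, 0.70 and 0.24), Ctsc is largest with the fibroblast covariate (1.23), and Ctse stays below 0 in all 4 fits.

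The array file names of treated samples in the labels used "DOX" for 7 lymphomas and "sen" for 5, with no meaning stated. No cathepsin probe set, and none of all 34945 (0%), differed in its change between these sets at the threshold. Ctsk had the largest difference, 1.63 ± 1.00 in the 7 DOX and 0.19 ± 0.60 in the 5 sen lymphomas (SD, difference 1.44, limma adjusted p = 0.677, unadjusted p = 0.00746). Within the DOX lymphomas 8 cathepsin genes were called higher and Ctse lower, where 8.64% of all genes were called higher and 8.34% lower. Within the sen lymphomas 3 were called higher, Ctsa (0.88), Ctsb (1.29) and Ctsd (1.83), where 1.76% of all genes were. In the DOX lymphomas the relation to the macrophage marker change passed for Ctsl (r = 0.972), Ctsd (0.969), Ctsh (0.952), Ctss (0.948), Ctsb (0.935) and Ctsa (0.890), with exact permutation adjusted p between 0.0132 and 0.0283, whereas Ctsz (0.463) did not pass. By rank only that of Ctsl passed (exact permutation adjusted p = 0.0159), with the other 5 between 0.054 and 0.0952. Of all genes 1.22% had an r of at least 0.890 there. Ctsa (0.940) and Ctsh (0.901) were related to the fibroblast change there too (exact permutation adjusted p = 0.027 and 0.0397), though not by rank (0.137 and 0.054), and 1.87% of all genes had an r at or above that of Ctsh. In these 7 lymphomas, however, the 2 marker changes were themselves related (r = 0.852, rho = 0.929, exact permutation p = 0.0185 and 0.00675). The 5 sen lymphomas were too few for a correlation.

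Genes around the cathepsins gave a mixed picture. For comparison, 13.4% of all genes were called higher and 12.5% lower. Of 15 genes for activation and delivery of lysosomal enzymes, 8 were called higher and 2 lower (median 0.33). The lysosomal membrane gene Lamp1 rose 2.16-fold (limma adjusted p = 1.72e-05), the prosaposin gene Psap, whose product is cleaved by cathepsins, 2.10-fold, and Igf2r, a mannose 6-phosphate receptor, 1.74-fold. Lgmn, legumain, which cleaves several cathepsins to their mature chains, rose 1.53-fold. Gnptab, which builds the mannose 6-phosphate tag, was 1.26-fold lower. Of 13 measured genes in an inhibitor list, which includes the annexin gene Anxa8, 6 were higher and 1 lower (median 0.30). Of the 13, 8 had an untreated mean above 4.47, the highest array median, and 8 an ADR mean above it. The cytosolic stefin B gene Cstb rose 2.40-fold and the secreted cystatin C gene Cst3 1.44-fold. Serpinb6a rose 4.37-fold, Anxa8, an annexin in the inhibitor list, 4.26-fold and the stefin gene Stfa3 3.97-fold, while Serpinb1a was 2.49-fold lower.

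Of 9 transcription regulators in a list for lysosomal genes, 4 were higher and none lower, where 13.4% of all genes were higher and 12.5% lower. Tfe3 (1.62-fold, limma adjusted p = 8.73e-05) and Mitf (1.90-fold), both E-box factors, rose, whereas Tfeb averaged 6.90 ± 0.26 with ADR and 6.91 ± 0.30 untreated (SD, n = 12 each, log2 change -0.01, limma adjusted p = 0.957). Spi1, which encodes PU.1, rose 1.62-fold. In the MHC class II list 0 of 10 were called higher and 3 lower, and Cd74, the invariant chain that cathepsin S cleaves, had a log2 change of -0.05 (adjusted p = 0.854). The 3 were H2-Ob (2.28-fold) and H2-Oa (1.76-fold), chains of the H2-O modulator, and Ifi30, a lysosomal thiol reductase (1.27-fold). Of 10 partners of cathepsins A and C, 2 were higher: Glb1, the lysosomal beta-galactosidase (1.38-fold), and the granzyme gene Gzma, at 3.92 with ADR and 3.75 untreated, below the array medians. Only 3 of these 10 had an untreated mean above 4.47, the highest array median, and 2 an ADR mean above it. The count therefore says little about partners as a group.

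Of 14 further genes named cathepsin or of the same families, 1 was called higher, Ctso (1.78-fold, limma adjusted p = 0.000882), and none lower. Of all genes 13.4% were called higher and 12.5% lower. Only 3 of the 14 had an untreated mean above 4.47, the highest array median, and 4 an ADR mean above it, so most were too weak to judge. Napsa was well above it (10.06 with ADR, 10.39 untreated) and was not called (limma adjusted p = 0.0745). Ctsf (4.83 with ADR, 4.46 untreated, adjusted p = 0.147) and Ctsw (4.97 with ADR, 4.94 untreated, adjusted p = 0.837), a cathepsin of T and NK cells, were weak and not called.

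The genes outside the family whose changes were most like those of a member were sought among 8220 genes with a mean over 6, by Pearson r over the 12 lymphomas, with no test. Psap was the closest gene to Ctsb (0.920) and to Ctss (0.937) and the second closest to Ctsd (0.921), whose closest was Msr1, a macrophage scavenger receptor (0.926). For Ctss, Tyrobp, a myeloid signalling adaptor, was next (0.921), then Id2 (0.910), and for Ctsb they were Marcks (0.915) and Cpeb4 (0.901). Ifitm3 was the third for Ctsd (0.920). Ctsz was closest to Arrb1 (0.946), the phagocyte oxidase subunit Cyba (0.942) and the macrophage growth factor receptor Csf1r (0.926), and Ctsc to Cyth4 (0.945), the leukocyte actin bundler Lcp1 (0.939) and Arid3a (0.923). For Ctsa these were Rnf149 (0.920), Slc37a2 (0.911) and the proton pump subunit Atp6v1b2 (0.908), and for Ctsh Etv3 (0.950), Id2 (0.940) and again Atp6v1b2 (0.924). Ctsl was closest to the interleukin 4 receptor gene Il4ra (0.960), then F11r (0.935) and Rogdi (0.922). Less close were the nearest genes of Ctse, Dcun1d1 (0.905), Psma7 (0.855) and Gfm2 (0.851), and of Ctsk, Psmd8 (0.875), Sike1 (0.843) and Aopep (0.841).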

How the data were processed

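The deposited table gave 1 log2 value per probe set and array for 45101 probe sets and 24 arrays. Per the submitters' processing notes the authors used RMA and Partek, with no version or setting given in the sources used here. That the values are log2 was inferred from their range (array medians 4.38 to 4.47). No further normalization was made. Probe sets with 1 gene symbol in the platform annotation (34945, for 18193 genes) were kept, and 932 with several, 9160 with none and 64 controls were left out. In counts and correlations the probe set with the highest mean stands for a gene.

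The lymphoma number in the titles pairs the arrays, as the design text states matched pairs. Within pairs, deviations from the group means correlated at 0.257 to 0.589, above 0.1 in all 12. In 10 of the 12 the ADR array correlated best with the untreated array of its own lymphoma, and in the rest with that of another. Cultures of a lymphoma share a tumour. With the lymphoma as a block, limma p-values weigh the mean change against the spread of that change among lymphomas, array noise included. Changes were fitted in limma 3.58.1 (R 4.3.3) with lymphoma number as a blocking factor, adjusted by Benjamini-Hochberg over 34945 probe sets and called under 0.05. The fit was tested on simulated data. Correlations used two-sided permutation tests (100000 resamples, or all orderings for 7 lymphomas) in Python 3.11.15 with numpy 2.4.6. Marker means are means over a list, 1 probe set per gene.

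Members and lists were chosen with earlier results of these data known. Promoter letters are from RefSeq (GRCm38.p6). Genes named in other lists are the 3 called genes that moved most in the commoner direction and the 1 that moved most in the opposite one (2 genes if a list had no call), with Tfeb, Tfe3, Mitf, Lgmn, Psap, Cst3, Cstb, Cd74, Ctsf, Ctso and Ctsw in any case; other names were chosen after their values were seen. Alternatives covered scaling, filtering, the block, array names, covariates and each lymphoma left out. The number of arrays limits the precision.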

Additional observations from a re-analysis of the deposited data

How the results depend on the processing

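Leaving out any 1 lymphoma kept 8 genes higher and 1 lower, as did centring on array medians, quantile normalization, leaving out probe sets with a mean under 5, fitting 1 probe set per gene, and moderated variances with a trend. Over all probe sets, 3953 were higher and 4369 lower with the block, against 2371 and 2821 without it. Without the replicate block 5 genes were called higher and 1 lower; Ctsc, Ctsk and Ctsz lost their call (adjusted p = 0.135, 0.211 and 0.0947). The sen lymphomas alone gave 3 higher and 0 lower, with the directions of Ctse 1418989_at (-0.20) and Ctsh 1443814_x_at (-0.022) turned; this fit has 5 pairs. The fibroblast covariate left 1 higher and 0 lower and turned Ctsl 1457724_at (-0.44). The macrophage covariate left 0 higher and 0 lower and turned Ctsb 1448732_at (-0.23) and 1444987_at (-0.074), Ctsc 1416382_at (-0.023) and 1446834_at (-0.72), Ctse 1418989_at (-0.45), Ctsh 1418365_at (-0.97) and 1443814_x_at (-0.95), and Ctss (-0.31). Both covariates left 0 and 0, and turned Ctsa 1448128_at (-0.17), Ctsb 1417490_at (-0.075) and 1448732_at (-0.65), Ctsc 1446834_at (-0.33), Ctsh 1418365_at (-1.27) and 1443814_x_at (-1.12), Ctsl 1451310_a_at (-0.36) and 1457724_at (-0.29), and Ctss (-0.49). None of the turned estimates was called.

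The count of genes related to the macrophage marker change was 7, against 4 with arrays centred on their medians and 2 without the 2 lymphomas farthest from the median; by rank the counts were 6, 3 and 0. For the fibroblast change it was 0, and 2 within the DOX lymphomas. For untreated levels, 4 genes were related to macrophage and 1 to fibroblast markers. These counts were 0 and 0 within the DOX lymphomas, and the fibroblast count 0 without the 2 farthest. By rank the untreated macrophage count was 4, and 2 without the 2 farthest. The cause of these differences was not tested. The second Ctsl probe set lay below the array medians, which limits what it can show.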
